A study of Mus musculus with 5 samples.

Results

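The transcription factor Foxp3 and the 5 Ikaros family zinc finger factors, Ikzf1 (Ikaros), Ikzf2 (Helios), Ikzf3 (Aiolos), Ikzf4 (Eos) and Ikzf5 (Pegasus), were followed in regulatory T (Treg) cells, 6 genes of the 38130 entries in each library. They were chosen by gene symbol, and each had 1 entry with status OK and passed the filter on low values with 11296 tested genes. Total RNA was sequenced from CD4+YFP+ cells of C57BL/6 mice, in 5 libraries of 4 groups. The KI group, 2 libraries at 6 weeks, carried Foxp3Cre-YFP with 1 floxed Malt1 allele and 1 C472A allele, which the labels describe as inhibition of Malt1 protease activity in Treg cells. The KO group, 1 library at 21 days, carried Foxp3Cre-YFP with both Malt1 alleles floxed, for deletion in Treg cells. The wild type (WT) groups, 1 library at 6 weeks and 1 at 21 days, carried the Foxp3-Cre-YFP reporter alone. All groups therefore share the Cre and the reporter, both tied to Foxp3, and the cells were gated on that reporter, so the presence of Foxp3 mRNA is part of the sort and only its level is described. The floxed Malt1 allele of KI is a target of the same Cre. No label ties the libraries to separate animals, and the spread between the KI libraries may be technical.

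Foxp3 is the forkhead factor that defines Treg cells, and its loss in mice leads to fatal autoimmunity. Ikaros family proteins bind DNA through an N-terminal group of zinc fingers and pair with each other through a C-terminal group, and they recruit corepressor complexes such as NuRD. In mouse Treg cells, Helios marks a large, mostly thymus-derived fraction and supports a stable suppressive state, while Eos works with Foxp3 as a corepressor. Ikaros is expressed through most lymphoid cells, Aiolos in B cells and several T cell subsets, and Pegasus broadly at low levels. Malt1, the paracaspase whose gene is altered here, relays antigen receptor signals to NF-kB, and the NF-kB subunit c-Rel binds the Foxp3 locus.

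The coding sequence of the second zinc finger shows how close the family members are to each other, which bears on whether short reads can be assigned to the right gene. The 63 bases are given 5′ to 3′ on the coding strand, with the codons of the 2 cysteines and 2 histidines that hold the zinc ion in capitals. They were read from GENCODE M21 transcripts (GRCm38) at chr11:11754024-11754086 (plus strand) for Ikzf1, chr1:69570581-69570643 (minus) for Ikzf2, chr11:98488940-98489002 (minus) for Ikzf3, chr10:128640229-128640291 (minus) for Ikzf4 and chr7:131392501-131392563 (minus) for Ikzf5, each within 1 coding exon.
Ikzf1: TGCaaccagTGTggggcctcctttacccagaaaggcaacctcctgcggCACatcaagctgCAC
Ikzf2: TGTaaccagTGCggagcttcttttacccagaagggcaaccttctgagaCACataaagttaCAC
Ikzf3: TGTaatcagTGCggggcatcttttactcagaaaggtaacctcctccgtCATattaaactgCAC
Ikzf4: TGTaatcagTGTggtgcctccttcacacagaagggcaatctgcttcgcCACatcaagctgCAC
Ikzf5: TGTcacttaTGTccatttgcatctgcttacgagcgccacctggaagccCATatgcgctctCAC
Against Ikzf1, this finger differs at 12 bases in Ikzf2, 12 in Ikzf3 and 10 in Ikzf4. The second finger found in Ikzf5 differs at 37 bases and matches at 41.3%. Fingers were paired by their order and not aligned, so the finger of Ikzf5 may not be the counterpart of that in Ikzf1. Within the whole coding sequences the longest stretch shared by any pair of the 6 genes is 26 bases, between Ikzf1 and Ikzf3. A search for a set spacing of cysteines and histidines matched 5 fingers in each of Ikzf1 to Ikzf4 and 4 in Ikzf5. Fingers with a wider gap between the last 2 metal-binding residues would be missed, so the full number may be higher.

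The 5 libraries fell into sets that cross genotype and age, and this touches every comparison. As inferred from the bounds, each KI library held 24.5 M fragments (M, mega), against 7.79 M in KO, 6.88 M in 6-week WT and 28.1 M in 21-day WT, so KI and 21-day WT are called deep, and KO and 6-week WT shallow. Values are FPKM (fragments per kilobase of transcript, relative to the mapped fragments of the library) divided by a scaling factor for each library, called scaled FPKM. Differences were taken between values of log2(scaled FPKM + 1). Of the 11296 tested genes, 23.6% were higher in all 3 deep libraries than in both shallow ones, and 5 of the 6 genes, all but Ikzf3, were among them. The comparisons of KI with 6-week WT and of KO with 21-day WT both run across the sets, while KO with 6-week WT and KI with 21-day WT stay within a set but differ in age. Malt1 itself had 55.9 and 37.8 scaled FPKM in KI and 17.6 in KO, against 15.2 in 6-week WT and 27 in 21-day WT, so KO lay between the WT libraries in the gene it targets; the files give no exon values, and reads from exons left in place would be counted too. The Treg markers Il2ra, Ctla4 and Tnfrsf18 were present in every library, from 74.2 scaled FPKM upwards. Ctla4 had 412 and 246 in KI and 118 in KO, against 148 in 6-week WT and 396 in 21-day WT. Ctla4 was thus lowest in KO, like Foxp3, but Il2ra and Tnfrsf18 were lowest in 6-week WT. Il2ra had 76.7 in KO, 74.2 in 6-week WT and 93.4 in 21-day WT. Tnfrsf18 had 102 in KO, 90 in 6-week WT and 99.5 in 21-day WT. The 6 T cell markers summed to 1394 and 1745 in KI and 2105 in KO, against 2590 in 6-week WT and 1992 in 21-day WT. All 6 were lower in both KI libraries than in 6-week WT, with a median of -0.64, and their part in the differences described here was not tested.

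Foxp3 (ENSMUSG00000039521, X:7579676-7595243, plus strand, GRCm38) was lower in KO than in either WT library, and in KI it stood above 6-week WT and level with 21-day WT. It had 70.1 and 73.6 scaled FPKM in the KI libraries, 30.5 in KO, 39.5 in 6-week WT and 70.7 in 21-day WT. The KI libraries and 21-day WT overlapped in their bounds, and the KO library was the lowest of the 5. The bounds that Cufflinks gives, which cover counting and read assignment within a library, ran from 28.4 to 32.6 in KO, 36.8 to 42.2 in 6-week WT and 67.5 to 73.8 in 21-day WT, so KO did not overlap either WT library. KO over 21-day WT was 0.431, and KO over 6-week WT 0.771. KI averaged 71.9 ± 2.48 scaled FPKM (SD, n = 2), a log2 difference of 0.85 from 6-week WT (limma, SE 0.213, unadjusted p = 0.0227, adjusted p = 0.446) and 0.02 from 21-day WT. In these bulk libraries fewer cells of a type and less RNA per cell cannot be told apart, for Foxp3 and for every gene below.

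**Figure D1:**
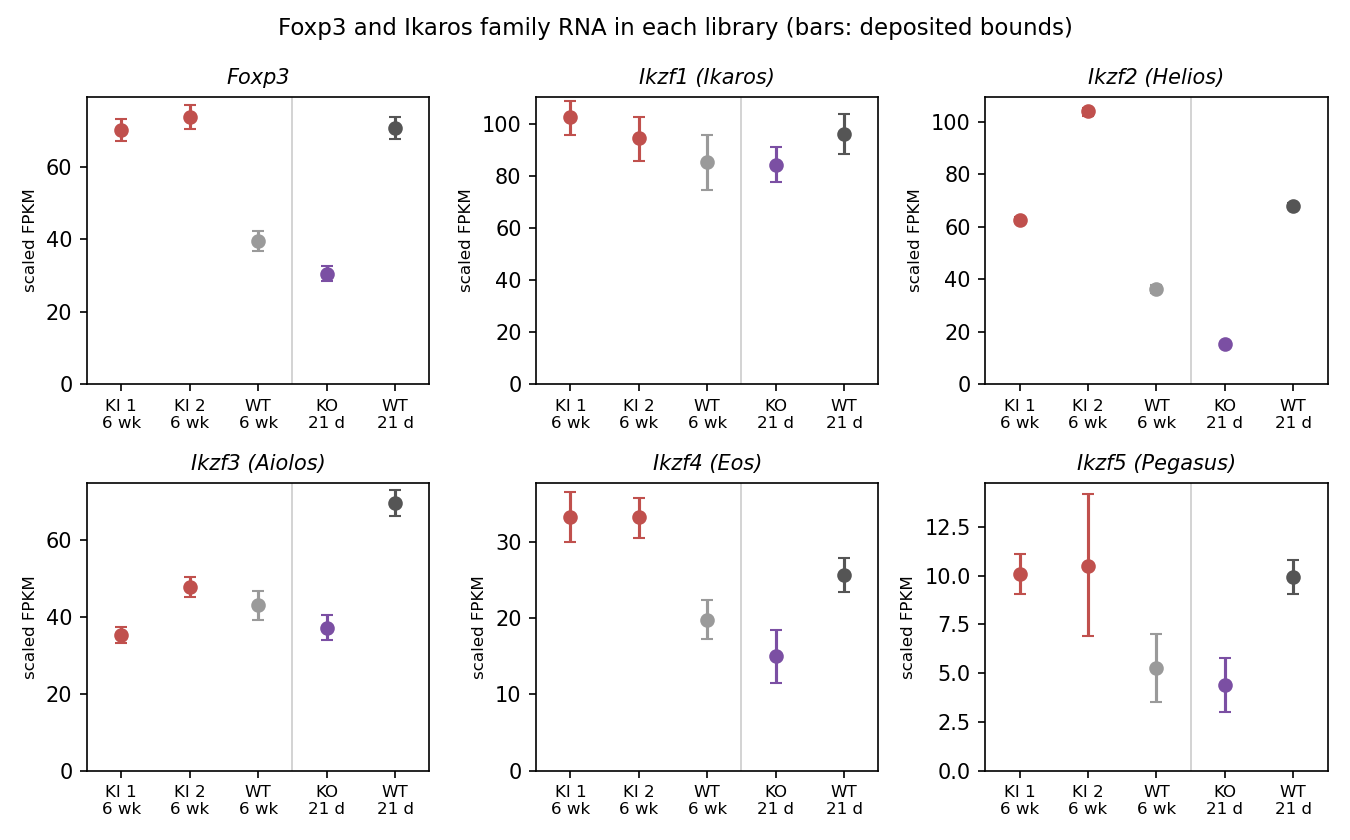
Scaled FPKM of Foxp3 and the 5 Ikaros family genes in each library (both KI libraries and 6-week WT left of the line, KO and 21-day WT right of it); points are the deposited values after scaling and bars the lower and upper bounds within a library. Ikzf2 spans 15.3 in KO to 104 in KI replicate 2, while Ikzf1 stays between 84.5 and 103.

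A promoter of Foxp3 is shown because Ikaros family proteins act at DNA and this is the only matched window that holds 1 of the 2 motifs searched. RefSeq (GRCm38.p6) gives 250 bases before to 50 after the start site at chrX:7579426-7579725 on the plus strand, and the start site is the first base of Foxp3 in the deposited files.
Foxp3: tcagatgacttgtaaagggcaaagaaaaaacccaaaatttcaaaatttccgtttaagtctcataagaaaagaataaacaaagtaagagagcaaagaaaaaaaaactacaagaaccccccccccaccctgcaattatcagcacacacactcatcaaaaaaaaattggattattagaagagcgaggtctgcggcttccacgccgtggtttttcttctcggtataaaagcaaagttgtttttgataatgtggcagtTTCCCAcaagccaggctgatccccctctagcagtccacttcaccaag
The capitals mark the match to TGGGAA, a core bound by Ikaros family fingers, found here on the minus strand as TTCCCA. The forkhead motif GTAAACA was not found in this window on either strand. Across 32851 RefSeq promoters of the same length, 25.6% hold TGGGAA and 3.65% hold GTAAACA on one strand or the other, and the letters of the motifs do not overlap in this window. Promoters of 3 of the 6 genes, 5 windows in all, were matched by name, and the other 4 windows hold neither motif.

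Helios showed the widest spread of the 6 genes over the libraries, with its lowest value in KO. Ikzf2 (ENSMUSG00000025997, 1:69531214-69685960, minus strand) had 62.6 and 104 scaled FPKM in the KI libraries, 15.3 in KO, 36.3 in 6-week WT and 68 in 21-day WT. The highest library was 6.75 times the lowest. Bounds were narrow, 14.5 to 16.2 in KO against 34.9 to 37.6 in 6-week WT and 67 to 69.1 in 21-day WT, and did not overlap between any of these. KO over 21-day WT was 0.226 and KO over 6-week WT, a library of the same depth set, was 0.423. Ikzf2 was the only member past 2-fold lower in KO than in both WT libraries, against 0.938% of tested genes in that direction, and there is no replicate of KO. The KI libraries differed from each other by 0.72 on the log2 scale, KI replicate 2 being 1.66 times KI replicate 1. KI averaged 83.1 ± 29 (SD, n = 2), 1.13 above 6-week WT on the log2 scale (limma, SE 0.398, unadjusted p = 0.0571, adjusted p = 0.476), and single KI libraries gave 0.77 and 1.49. Against 21-day WT the KI libraries lay on both sides, at -0.12 and 0.60.

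Set against Foxp3 in the same library, Helios was low in KO. Ikzf2 per Foxp3 was 0.893 and 1.41 in the KI libraries and 0.504 in KO, against 0.918 in 6-week WT and 0.963 in 21-day WT. KI replicate 1 and both WT libraries lay close together, KI replicate 2 above them and KO below. Neither Ikzf5 nor Ikzf4 had its lowest ratio in KO. Ikzf5 per Foxp3 was 0.144 and 0.143 in KI, 0.143 in KO, 0.133 in 6-week WT and 0.141 in 21-day WT. The bounds of Ikzf5 reached 34.4% to either side in KI replicate 2, 31.8% in KO and 33% in 6-week WT, wider than the spread of these ratios. Ikzf4 per Foxp3 was 0.476 and 0.452 in KI and 0.491 in KO, against 0.502 in 6-week WT and 0.364 in 21-day WT.

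Eos was the only member with bounds above both WT libraries in KI, against 3.23% of tested genes. Ikzf4 (ENSMUSG00000002578, 10:128630843-128645991, minus strand) had 33.3 and 33.3 scaled FPKM in KI and 15 in KO, against 19.8 in 6-week WT and 25.7 in 21-day WT. Both KI libraries stood above both WT libraries and KO stood below them. The KI mean of 33.3 ± 0.0607 (SD, n = 2) was 0.72 above 6-week WT on the log2 scale (limma, SE 0.216, unadjusted p = 0.0372, adjusted p = 0.46) and 0.36 above 21-day WT. In KO the bounds, 11.5 to 18.5, overlap those of 6-week WT, 17.3 to 22.4, but not those of 21-day WT, 23.5 to 28.

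Aiolos followed another order, highest in 21-day WT and lower in every other library. Ikzf3 (ENSMUSG00000018168, 11:98464902-98546031, minus strand) had 35.2 and 47.7 scaled FPKM in KI, 37 in KO, 42.9 in 6-week WT and 69.5 in 21-day WT. The WT library at 21 days, with bounds of 66.1 to 72.8, overlapped no other library, and KI replicate 2 was the next highest. KI averaged 41.5 ± 8.82 (SD, n = 2), -0.75 on the log2 scale from 21-day WT (-0.96 and -0.53 for single libraries) and -0.06 from 6-week WT (limma, SE 0.29, adjusted p = 0.944). KO lay at -0.89 from 21-day WT and -0.21 from 6-week WT, where the bounds overlap. Ikzf3 was the only member whose lowest library was a KI library.

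Ikaros was the most abundant family member in 4 of 5 libraries and the steadiest. Ikzf1 (ENSMUSG00000018654, 11:11685003-11772926, plus strand) had 103 and 94.6 scaled FPKM in KI, 84.5 in KO, 85.4 in 6-week WT and 96.2 in 21-day WT. Its SD over the libraries on the log2 scale was 0.12, lower than in all but 5.6% of tested genes. Ikzf2, at 1.03, lay at the 96.5th percentile. No Ikzf1 difference held its direction under every alternative setting. KI against 6-week WT, for example, was 0.20 as scaled (limma, SE 0.227, adjusted p = 0.737) and -0.09 with FPKM as deposited.

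Pegasus was the least abundant member in all 5 libraries, and its values moved with those of Foxp3, within wide bounds. Ikzf5 (ENSMUSG00000040167, 7:131388652-131410521, minus strand) had 10.1 and 10.5 scaled FPKM in KI and 4.37 in KO, against 5.27 in 6-week WT and 9.93 in 21-day WT. The 3 deep libraries lay close together, above both shallow ones. KI averaged 10.3 ± 0.301 (SD, n = 2), 0.85 above 6-week WT on the log2 scale (limma, SE 0.289, unadjusted p = 0.0518, adjusted p = 0.47). The bounds in KI replicate 2 ran from 6.91 to 14.2 and overlap the 3.53 to 7.02 of 6-week WT, while those in KI replicate 1 ran from 9.08 to 11.1. Those in KO ran from 2.98 to 5.76. How closely Ikzf5 followed Foxp3 cannot be read from values with such bounds.

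In KI against 6-week WT, no member passed limma's threshold, which with 1 residual degree of freedom called 1 of 11296 genes (the mitochondrial tRNA gene mt-Tp), 0.00885%, while an unadjusted p under 0.05 was reached by 1211 genes, 10.7%. A missed threshold in this fit does not show that genes were alike. Foxp3, Ikzf1, Ikzf2, Ikzf4 and Ikzf5 were higher in both KI libraries, 5 of 6 against 36.6% of tested genes higher and 38.0% lower in both, although Ikzf1 lies below WT with FPKM as deposited. For 3 of 6, Foxp3, Ikzf2 and Ikzf4, the bounds of both KI libraries lay above those of WT, against 16.0% of tested genes. No member was past 2-fold in both KI libraries, against 3.01% of tested genes higher and 2.80% lower. The median over the members was 0.78, and that over all tested genes was -0.00.

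Against 21-day WT, KI had a median over the members of 0.04, against 0.00 over all tested genes. Ikzf4 and Ikzf5 were higher in both KI libraries, 2 of 6 against 29.1% of tested genes. Ikzf4 lay above and Ikzf3 below in both KI libraries with bounds apart, against 5.86% of tested genes above and 6.95% below. For Foxp3, Ikzf1, Ikzf2 and Ikzf5 the bounds of the KI libraries did not both lie clear of WT on the same side. In limma 0 of 11296 genes were called in this comparison, with 240 genes, 2.12%, at an unadjusted p under 0.05.

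The KO library was below 21-day WT in all 6 members, against 48.6% of tested genes, with Ikzf1 turning to 0.20 when FPKM are used as deposited. For 5 of 6, all but Ikzf1, the bounds did not overlap, against 27.2%. Foxp3 (-1.19), Ikzf2 (-2.08) and Ikzf5 (-1.03) were past 2-fold lower, against 8.14% of tested genes, and Ikzf3 (-0.89) and Ikzf4 (-0.74) were short of it. The median over the members was -0.96, against 0.02 over all tested genes. KO was below 6-week WT in all 6 as well, against 51.2%, although Ikzf1, at -0.02, changes sign under 3 of 5 other settings. Here the bounds were apart for Foxp3 (-0.36) and Ikzf2 (-1.19), 2 of 6 against 12.0%, and only Ikzf2 was past 2-fold lower, against 2.29% of tested genes. The median was -0.29 against -0.01. The KO library held the lowest value of the 5 libraries for 5 of 6 members, against 24.2% of tested genes. These comparisons share the KO library, and each has 1 library per group and no replicate check.

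The WT libraries differed from each other too, and 6-week WT was below 21-day WT in all 6 members, against 48.6% of tested genes, with the bounds apart for 5, against 23.0%. The differences were -0.82 for Foxp3, -0.17 for Ikzf1, -0.89 for Ikzf2, -0.68 for Ikzf3, -0.36 for Ikzf4 and -0.80 for Ikzf5. With FPKM as deposited, the difference of Ikzf1 becomes 0.22 and that of Ikzf4 0.01. The median over the members was -0.74 against 0.01 over all tested genes. Age and library set cannot be told apart here.

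**Figure D2:**
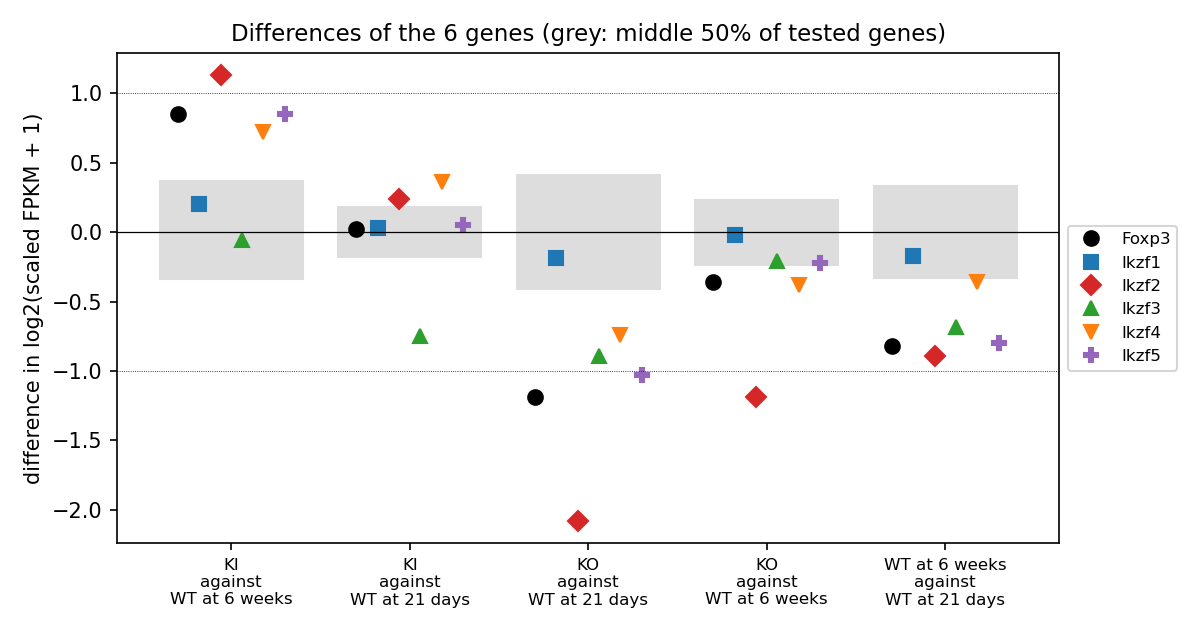
Differences in log2(scaled FPKM + 1) of the 6 genes in the 5 comparisons, KI as the mean of 2 libraries; the grey box is the middle 50% of 11296 tested genes and the dotted lines mark 2-fold. Ikzf2 lies at -2.08 and -1.19 in KO, outside the box in both comparisons, and at 1.13 in KI against 6-week WT.

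The make-up of the family differed between libraries in the shares of Helios, Ikaros and Aiolos. Summed over Ikzf1 to Ikzf5, scaled FPKM came to 244 and 290 in KI and 156 in KO, against 190 in 6-week WT and 269 in 21-day WT. Ikzf2 made up 25.7% and 35.8% of that sum in KI and 9.82% in KO, against 19.1% in 6-week WT and 25.3% in 21-day WT. Ikzf1 made up 42.1% and 32.7% in KI and 54.1% in KO, against 45% in 6-week WT and 35.7% in 21-day WT. In KI replicate 2 Helios stood above Ikaros, and in the other libraries Ikaros led. Ikzf3 made up 14.4% and 16.5% in KI and 23.7% in KO, against 22.6% and 25.8% in 6-week and 21-day WT. FPKM are per length, so these shares compare transcripts and not reads, and the SD of the Ikzf2 share in KI was 7.14 points around 30.7%. The Ikzf2 share was lower in both shallow libraries than in any deep one. FPKM of long transcripts also moved with the library sets, as described below, and Ikzf2 is the longest member. The part of length in these shares was not tested.

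**Figure D3:**
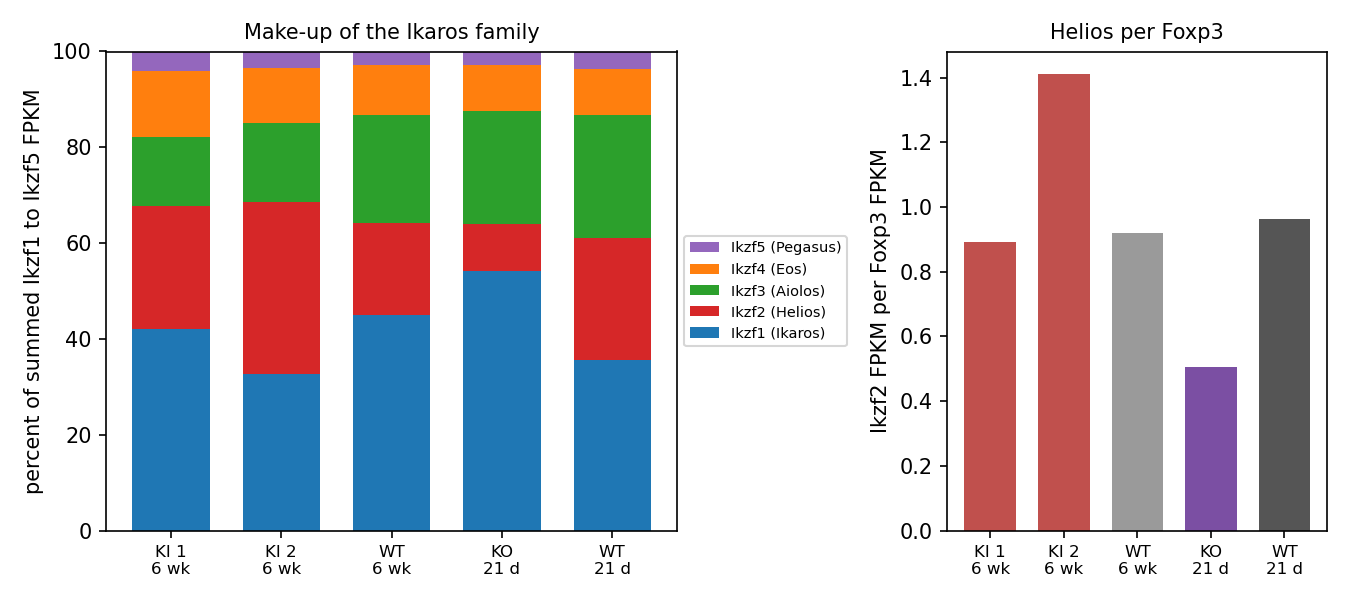
Share of each Ikaros family gene in the summed scaled FPKM of Ikzf1 to Ikzf5 in each library, in percent (left), and scaled FPKM of Ikzf2 per scaled FPKM of Foxp3 (right), without error bars. Ikzf2 takes 9.82% in KO and 19.1% to 35.8% elsewhere, and its ratio to Foxp3 is 0.504 in KO and 0.893 to 1.41 elsewhere.

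The profile of Foxp3 over the 5 libraries was compared with that of every tested protein-coding gene, as the root mean square difference of centred log2 values. Ikzf5 stood 14th of 9871 genes, at 0.06, and Ikzf4 252nd, at 0.17, while Ikzf2, at 0.46, stood 2891st. The 5 nearest genes were Zfyve16 (0.033), Braf (0.039), Herc1 (0.045), Kif1b (0.046) and Huwe1 (0.046), and their longest transcripts run from 6150 to 15153 nt, against a median of 3055 nt over tested coding genes. The nearest to Ikzf2 were St8sia4 (0.185), Itga4 (0.206), Xiap (0.214), Cbl (0.229) and Trp53inp1 (0.232), with longest transcripts of 5404 to 11372 nt. The likeness covers 5 libraries that also differ in depth. For Ikzf5 it is finer than the bounds, which reached 34.4% to either side in KI replicate 2, 31.8% in KO and 33% in 6-week WT.

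Transcript length moved with the library sets. Between KI and 6-week WT the median difference was -0.33 in 1479 genes of up to 1500 nt and 0.46 in 1254 genes over 6000 nt, and in KO against 21-day WT it was 0.33 and -0.50. Within a library set the slope was slight, from 0.06 to -0.11 in KO against 6-week WT and from -0.05 to 0.05 in KI against 21-day WT. Ikzf2, with a longest transcript of 9278 nt, is the longest member. After subtraction of the median of its length class, a step chosen after seeing the data, its difference was 0.67 in KI against 6-week WT, -1.57 in KO against 21-day WT and -1.08 in KO against 6-week WT. Foxp3, at 3834 nt, was little moved, at 0.81, -1.17 and -0.34 in the same comparisons.

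**Figure D4:**
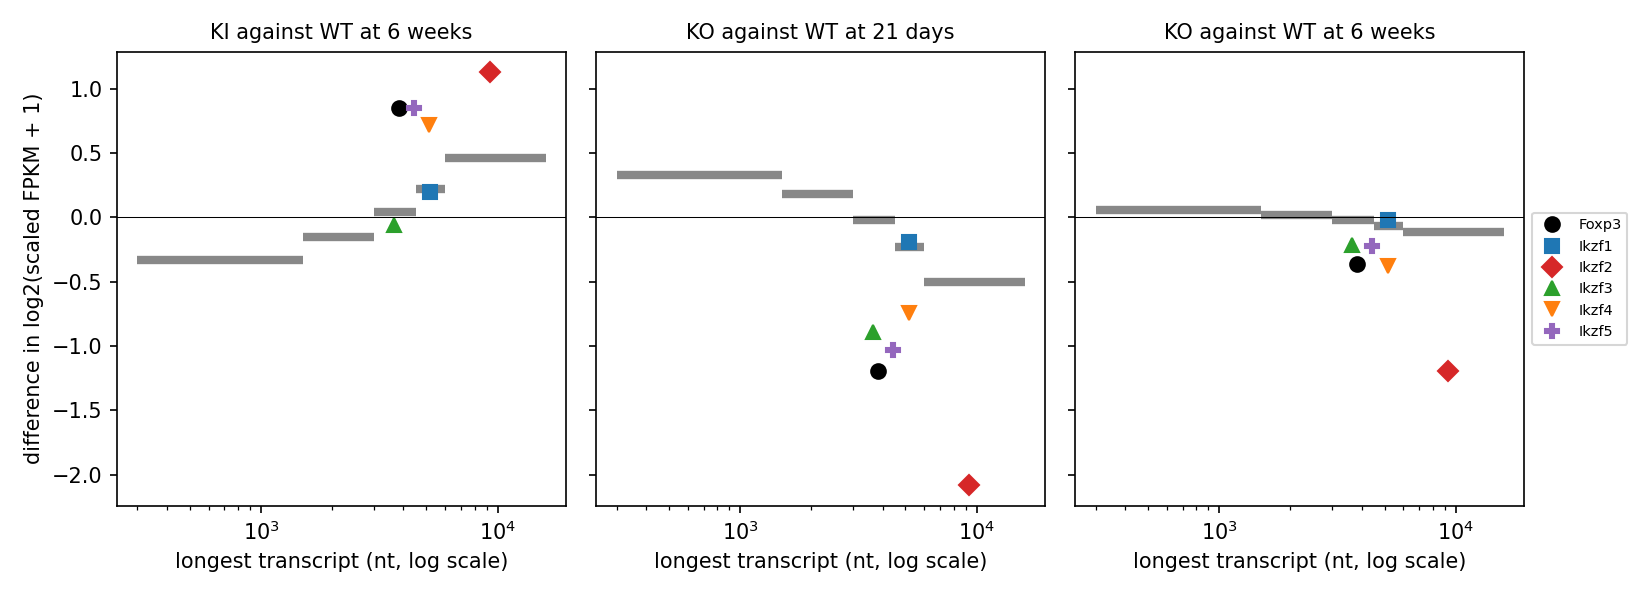
Median difference in log2(scaled FPKM + 1) of tested protein-coding genes by longest transcript in 5 length classes, with 1 panel for each comparison named above it; grey bars are the class medians, the outer classes are open-ended and points are the 6 genes. In KI against 6-week WT the medians climb from -0.33 to 0.46, and Ikzf2 lies above the class over 6000 nt.

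Regulators upstream of Foxp3 differed more, by their medians, from the WT library of the other depth set than from that of their own set, in KI and in KO. All 28 were tested. Both KI libraries were above 6-week WT in 16 and below it in 5, against 36.6% and 38.0% of tested genes, with a median of 0.43, and 4 were past 2-fold higher and 0 lower, against 3.01% and 2.80%. Against 21-day WT both were above in 5 and below in 9, against 3282 and 3222 of the 11296 tested genes. Past 2-fold there were 0 either way, against 0.398% of tested genes higher and 0.788% lower, and the median was -0.10. Nr4a2, a nuclear receptor induced by antigen signals that binds Foxp3 enhancers, had 26.9 and 7.77 scaled FPKM in KI and 3.47 in KO, against 2.89 in 6-week WT and 38.8 in 21-day WT. Its relative Nr4a3 had 58.8 and 16.8 in KI and 3.78 in KO, against 7.39 in 6-week WT and 51.5 in 21-day WT. The KI values of each lie far apart, and the shallow libraries are lowest. In KO 12 of 28 were past 2-fold lower than in 21-day WT, against 8.14% of tested genes, with a median of -0.55, and 0 were past 2-fold lower than in 6-week WT, against 2.29%, with a median of -0.06. Foxo1, which binds the Foxp3 promoter and enhancers and holds T cells quiescent, had 54.6 and 56.6 in KI and 34.3 in KO, against 65.3 in 6-week WT and 81.7 in 21-day WT. Foxo3 had 10.5 and 9.91 in KI and 5.57 in KO, against 12.1 and 15.7 in 6-week and 21-day WT, so both Foxo genes were lowest in KO.

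Factors that bind Foxp3 protein had 24 of 25 members tested. Relative to 6-week WT, 2 were past 2-fold higher in KI and 1 lower, against 3.01% and 2.80% of tested genes, with a median of 0.08. Relative to 21-day WT, 0 were past 2-fold either way, against 0.398% higher and 0.788% lower, with a median of -0.06. In KO 5 were past 2-fold lower than in 21-day WT and 0 higher, against 8.14% and 6.13%, with a median of -0.45. Only 1 was past 2-fold lower in KO than in 6-week WT and 0 higher, against 2.29% and 3.30%, with a median of -0.24. Rel, which encodes c-Rel, had 40.5 and 16.2 in KI and 4.64 in KO, against 7.79 in 6-week WT and 46.5 in 21-day WT. Hif1a, the oxygen-sensing factor, had 82.3 and 92.8 in KI and 42.1 in KO, against 28.9 in 6-week WT and 69.2 in 21-day WT. Rora had 9.85 and 8.68 in KI and 2.58 in KO, against 5.25 in 6-week WT and 17.8 in 21-day WT.

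Genes that Foxp3 raises in Treg cells had all 25 members tested. Both KI libraries were above 6-week WT in 17 and below it in 3, against 36.6% and 38.0% of tested genes, and 3 were past 2-fold higher and 0 lower, against 3.01% and 2.80%. The median was 0.47 there and -0.04 against 21-day WT. Relative to 21-day WT, 2 were past 2-fold higher in KI and 2 lower, against 0.398% and 0.788% of tested genes. Lrrc32 (GARP), which anchors latent TGF-beta on the Treg surface, had 136 and 115 in KI and 40.1 in KO, against 35.6 in 6-week WT and 57.2 in 21-day WT. Plagl1, a zinc finger factor, had 33.6 and 16 in KI and 1.81 in KO, against 4.09 in 6-week WT and 24 in 21-day WT. In KO against 21-day WT 6 were past 2-fold lower and 3 higher, against 8.14% and 6.13% of tested genes, with a median of -0.28. Relative to 6-week WT, 0 were past 2-fold lower in KO and 3 higher, against 2.29% and 3.30%, and the median was 0.14. KO was above 6-week WT in 16 and below it in 9, against 5445 and 5782 of the 11296 tested genes. The cytotoxic protease Gzmb and the enkephalin precursor Penk were past 2-fold higher in KO than in both WT libraries, against 2.17% of tested genes. Gzmb had 18.2 and 15.5 in KI and 58.7 in KO, against 9.93 in 6-week WT and 7.13 in 21-day WT. Penk had 32.7 and 17.2 in KI and 61.9 in KO, against 26.8 in 6-week WT and 29.8 in 21-day WT.

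Genes that Foxp3 lowers had 18 of 20 members tested. Both KI libraries were below 6-week WT in 10 and above it in 2, against 38.0% and 36.6% of tested genes, and 3 were past 2-fold lower and 0 higher, against 2.80% and 3.01%. The median was -0.44 there and -0.23 against 21-day WT. Pde3b, a cyclic nucleotide phosphodiesterase that Foxp3 represses, had 1.11 and 0.927 in KI and 2.75 in KO, against 5.07 in 6-week WT and 2.72 in 21-day WT. Dapl1 had 3.72 and 7.11 in KI and 6.59 in KO, against 33.9 in 6-week WT and 9.56 in 21-day WT. Cd40lg, the CD40 ligand, was the 1 gene of this list past 2-fold lower in KI than in both WT libraries, against 0.345% of tested genes. It had 5.04 and 5.09 in KI and 21.6 in KO, against 16.6 in 6-week WT and 12.2 in 21-day WT. In KO the list as a whole showed no net difference, with 9 above and 9 below 21-day WT, against 48.6% of tested genes below. The median was -0.03 there and -0.01 against 6-week WT. Past 2-fold, 3 were higher and 2 lower in KO than in 21-day WT, against 6.13% and 8.14% of tested genes. Relative to 6-week WT, 3 were past 2-fold higher in KO and 1 lower, against 3.30% and 2.29%. Il4 and Il7r were past 2-fold higher in KO than in both WT libraries, against 2.17% of tested genes. Il4, a T helper 2 cytokine, had 2.67 and 2.2 in KI and 14.5 in KO, against 0.712 in 6-week WT and 0.675 in 21-day WT. Il7r, the interleukin 7 receptor that Treg cells keep low, had 119 and 53.2 in KI and 130 in KO, against 54.6 in 6-week WT and 58.8 in 21-day WT, so KI replicate 1 was high as well.

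The last lists held corepressor subunits recruited by Ikaros proteins and subunits of the ubiquitin ligase that degrades Ikaros and Aiolos in the presence of thalidomide-type drugs. Of 23 tested corepressor genes 0 were past 2-fold in KI against 6-week WT, against 3.01% of tested genes higher and 2.80% lower, with a median of -0.01. In KO against 21-day WT 1 was lower and 0 higher, against 8.14% and 6.13%, with a median of 0.13. Chd3, a NuRD helicase, had 243 and 209 in KI and 158 in KO, against 258 in 6-week WT and 249 in 21-day WT. Gatad2b, another NuRD subunit, had 16.7 and 20.5 in KI and 6.82 in KO, against 10.2 in 6-week WT and 18.5 in 21-day WT, and Smarcc1 of the BAF complex had 11.6 and 18.6 in KI, 7.78 in KO, 8.78 in 6-week WT and 12.5 in 21-day WT. Of the 6 ligase genes 0 were past 2-fold in either comparison, with medians of 0.23 in KI against 6-week WT and -0.33 in KO against 21-day WT. Crbn, the drug receptor, had 29.9 and 26.3 in KI and 20.1 in KO, against 18.6 in 6-week WT and 28.8 in 21-day WT. Cul4b had 11.6 and 14.3 in KI, 7.01 in KO, 8.08 in 6-week WT and 13.8 in 21-day WT, and Rbx1 had 13.9 and 20.5 in KI, 23.7 in KO, 21.9 in 6-week WT and 16.4 in 21-day WT.

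Markers of cells other than Treg cells moved with some of these differences. The summed scaled FPKM of 6 B cell markers, cells that use Ikaros and Aiolos, was 126 and 208 in KI and 222 in KO, against 321 in 6-week WT and 203 in 21-day WT. Of these 6, 2 reached 1 in each KI library and in KO, against 6 in 6-week WT and 5 in 21-day WT. Plasmacytoid dendritic cell markers summed to 20.2 and 28 in KI and 38.7 in KO, against 101 in 6-week WT and 43 in 21-day WT, with Siglech at 0 in KI replicate 1. Myeloid markers summed to 23.5 and 4.27 in KI and 13.7 in KO, against 87.4 in 6-week WT and 6.57 in 21-day WT. Conventional CD4 T cell markers summed to 375 and 275 in KI and 431 in KO, against 478 in 6-week WT and 325 in 21-day WT. Members of that list disagreed. Tcf7, Igfbp4 and Dapl1 were highest in 6-week WT, at 219, 154 and 33.9. Il7r, Cd40lg and Il2 were highest in KO, at 130, 21.6 and 0.551. Erythroid and platelet markers summed to 25.2 and 3.05 in KI and 1.63 in KO, against 44.3 in 6-week WT and 5.87 in 21-day WT. All of these sums were highest in 6-week WT. Plasma cell marker sums were lowest there, at 37.5, against 65.4 and 41.8 in KI, 62.5 in KO and 42.5 in 21-day WT. Most of this sum came from Xbp1, at 30.8 in 6-week WT. The other plasma cell markers, Jchain, Sdc1 and Mzb1, were each lowest in KI replicate 2, and Sdc1 was highest in 6-week WT. Natural killer marker sums were highest in KO, 4.77, against 1.25 and 1.21 in KI, 2.97 in 6-week WT and 1.37 in 21-day WT. The part of these markers in the differences of Foxp3 and the Ikaros family was not tested. Foxp3 per the mean of Cd3e, Cd3d, Cd3g and Cd4, a scaling chosen after seeing the data, was 0.445 and 0.367 in KI and 0.128 in KO, against 0.148 in 6-week WT and 0.335 in 21-day WT. On that scale KO over 6-week WT was 0.86 for Foxp3 and 0.472 for Ikzf2, and KO over 21-day WT was 0.381 for Foxp3 and 0.199 for Ikzf2.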

How the data were processed

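Total RNA of sorted CD4+YFP+ cells was sequenced in 5 libraries. CASAVA, HISAT2 2.1.0 and Cufflinks 2.2.1 were used on GRCm38, per the submitters' processing notes, and settings, strand and annotation release are not given in the sources read here, so reads of overlapping genes cannot be separated. The deposited values are FPKM per gene with lower and upper bounds and a status, per the file headers. Since FPKM lack counts, depth was inferred from the width of the bounds, taken as 2 standard errors on each side. A median-of-ratios factor (from 9874 genes that reach FPKM 1 in every library) scaled each library, and differences were taken after log2(scaled FPKM + 1), a scale that shrinks the differences of weakly expressed genes. Testing was limited to the 11296 genes whose scaled FPKM averaged 1 or more. For KI against 6-week WT, limma 3.58.1 in R 4.3.3 was run with trend (two-sided, Benjamini-Hochberg, threshold 0.05). Its 1 residual degree of freedom comes from the KI libraries, and the single WT library is assumed to vary like them. This step was also tested on simulated data, where it did not recover the changes put in, so a missed threshold says little about a gene. KO and the WT ages have 1 library per group and no test, and were described by size (past 2-fold) and by whether bounds overlap. The 5 nearest genes are those with the smallest root mean square difference. From each pathway list, the text names the 2 genes with the largest difference in KI against 6-week WT, of 1 sign in both KI libraries, and the 2 with the largest difference in KO, of 1 sign against both WT libraries. A gene that this rule picks and a marker gene are not reported here. Malt1 and the marker genes are named beside them, and Cd40lg was named after its values were seen. The genes and lists were chosen with earlier results of these data known. Alternatives were the scaling, the pseudocount, the filter, the trend, the gene set, the control and leaving out each KI library.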

Additional observations from a re-analysis of the deposited data

Results flagged for a closer look

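For 5 of the 6 genes both KI libraries lay above 6-week WT while KO lay below 21-day WT, and the difference between the 2 effects was not tested. The log2 differences were 0.85 in KI and -1.19 in KO for Foxp3, 0.20 and -0.19 for Ikzf1, 1.13 and -2.08 for Ikzf2, 0.72 and -0.74 for Ikzf4, and 0.85 and -1.03 for Ikzf5, each with KI first. Of all tested genes, 26.5% showed this pattern. KI and KO are different alleles at different ages, and each comparison sets a deep library against a shallow one. With FPKM as deposited the KI difference of Ikzf1 is -0.09 and its KO difference 0.20, so Ikzf1 does not hold the pattern under that scaling.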

How the results depend on the processing

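Where KI was compared with 6-week WT, limma called 1 gene, against 0 without trend, 1961 without the filter on low values, 15 over protein-coding genes only, 0 with upper quartile scaling and 50 with a pseudocount of 0.1, and the cause was not tested. Foxp3 stayed between 0.43 and 1.44 and Ikzf2 between 0.67 and 1.73 over 11 alternatives each. Neither gene passed limma's threshold in the settings that were refitted. Leaving out a KI library, subtracting the length class median and scaling by T cell markers had no test, and 1.44, 0.67 and 1.73 come from such settings. Ikzf1 turned to -0.09 with FPKM as deposited (limma, adjusted p = 0.895), which also moves the median of all genes to -0.26. The same step moves that median to 0.35 in KO against 21-day WT and in 6-week WT against 21-day WT. The count of members higher in both KI libraries than in 21-day WT, 2 as reported, was 1 after subtraction of the length class median and 5 per mean of Cd3e, Cd3d, Cd3g and Cd4, both chosen after seeing the data, and leaving out either KI library gave 3 to 4. In KO, Foxp3 kept its direction over 5 alternatives, from -1.39 to -0.81 against 21-day WT and from -0.37 to -0.22 against 6-week WT, and Ikzf2 from -2.33 to -1.58 and from -1.23 to -1.08. No paired analysis was possible because WT and KO have 1 library per group, so that no groups share 2 replicate numbers. Bounds were widest around Ikzf5, at 34.4% in KI replicate 2, 33% in 6-week WT and 31.8% in KO. In KI replicate 1, of the same estimated depth as KI replicate 2, they stood at 10.2%. Around Ikzf4 in KO the bounds stood at 23.4%.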
